A study of Mus musculus with 2 samples.

Results

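Gamma-delta T cells were read here as cell barcodes with RNA of the T cell receptor delta constant gene Trdc together with RNA of a CD3 chain (Cd3d, Cd3e or Cd3g) and none of Foxp3, Cd8b1 or Ncr1, which mark regulatory T cells, CD8 T cells and natural killer (NK) cells. Members were thus chosen by measured values, the UMI counts of these 7 genes (a UMI, or unique molecular identifier, stands for 1 counted RNA molecule). A barcode also had to hold 500 or more UMIs and 200 or more genes, with mitochondrial genes giving no more than 10% of the UMIs. The rule found 83 members among 18812 barcodes that passed these limits. Of these, 47 of 9442 came from UEIS KI and 36 of 9370 from UEIS LSL.

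The barcodes are CD45+ immune cells that had been sorted from digested subcutaneous tumours of MC38, a mouse colon carcinoma line, and sequenced by droplet 3' single-cell RNA-seq (10x, version 3 chemistry). Both groups are C57BL/6 hosts of the same tumour line, UEIS KI mice and UEIS LSL mice, with 1 library each. The labels name the micropeptide UEIS in connection with cGAS-STING and type I interferon signalling, but do not spell out the UEIS KI or UEIS LSL allele, its promoter, the age of the mice or whether mice were pooled. With 1 library a group, a difference between UEIS KI and UEIS LSL has no replicate check and no test. The intervals below are exact 95% intervals that cover counting error only. Those of ratios of large shares are too wide.

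Gamma-delta T cells carry a receptor of a gamma and a delta chain in place of the alpha and beta chains of other T cells. In mice, many of them leave the thymus already committed to making interleukin 17 (IL-17), under transcription factors such as Maf and Sox13 and the kinase Blk, while others make interferon-gamma and cytotoxic molecules. Scart1 and Scart2 are neighbouring genes on chromosome 7 for scavenger receptors of the CD163 family; in mice they have been described on IL-17-producing gamma-delta T cells of the Vγ6 kind (Scart1) and the Vγ4 kind (Scart2). In tumours, IL-17 from such cells is known for drawing in neutrophils and macrophages.

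Because Scart2, Scart1 and Il17a are the genes on which the account below turns, their promoter windows are shown first, each running 250 bases before to 50 bases after the annotated start (RefSeq, GRCm38.p6, plus strand). The windows are chr1:20730655-20730954 for Il17a, chr7:140247051-140247350 for Scart2 (the first of 3 annotated starts) and chr7:140218017-140218316 for Scart1. Capitals mark AGGTCA read on either strand (TGACCT on the other), the core letters bound by many nuclear receptors.
Scart2: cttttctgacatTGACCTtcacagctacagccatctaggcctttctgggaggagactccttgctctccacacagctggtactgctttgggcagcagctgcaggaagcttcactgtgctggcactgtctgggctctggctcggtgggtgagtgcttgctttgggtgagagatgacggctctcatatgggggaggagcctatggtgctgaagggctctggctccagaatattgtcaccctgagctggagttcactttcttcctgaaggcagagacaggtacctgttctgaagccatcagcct
Scart1: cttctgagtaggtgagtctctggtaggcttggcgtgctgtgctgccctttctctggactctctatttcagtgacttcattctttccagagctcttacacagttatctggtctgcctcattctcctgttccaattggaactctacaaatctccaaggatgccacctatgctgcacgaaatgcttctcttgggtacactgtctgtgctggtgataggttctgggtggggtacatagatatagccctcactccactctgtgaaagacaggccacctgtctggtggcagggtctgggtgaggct
Il17a: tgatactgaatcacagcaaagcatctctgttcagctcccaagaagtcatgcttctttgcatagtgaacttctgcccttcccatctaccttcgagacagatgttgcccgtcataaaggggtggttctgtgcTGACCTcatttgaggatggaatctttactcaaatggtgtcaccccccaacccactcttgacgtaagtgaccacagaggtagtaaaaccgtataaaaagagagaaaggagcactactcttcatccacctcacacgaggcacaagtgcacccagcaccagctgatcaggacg
The Il17a window held 1 match, all 3 Scart2 windows held a match, and the Scart1 window held none. Of 32851 mouse promoter windows of this length, 5340 (16.3%) held the same letters. Among 42 genes of the IL-17 gene list that were found in the table, 10 (23.8%) had a window with a match, against 4900 of 27025 genes overall (18.1%). A match says only that these letters are present.

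Both libraries were of similar overall depth, but the gamma-delta barcodes were not. Quality-passing barcodes had a median of 9004 UMIs in UEIS KI and 8230 in UEIS LSL, whereas gamma-delta barcodes had medians of 2808 UMIs (1249 to 36815) in UEIS KI and 6856.5 UMIs (819 to 26779) in UEIS LSL. Their summed depth was close, 290832 UMIs in UEIS KI and 303428 in UEIS LSL, and levels are given as CPM, the counts of a gene scaled so that each of these sums has the same total. Macrophages made up most of the sorted cells, and 10 of 47 gamma-delta barcodes in UEIS KI (21.3%, 10.7% to 35.7%) and 15 of 36 in UEIS LSL (41.7%, 25.5% to 59.2%) carried C1qa, C1qb and C1qc RNA at more than 0.25 of the share usual in macrophages of their library. All 12 macrophage markers were seen, with 4571 UMIs in 47 of 47 gamma-delta barcodes of UEIS KI and 6563 UMIs in 35 of 36 of UEIS LSL. Barcodes called as doublets were kept, 9 in UEIS KI and 4 in UEIS LSL. The part of macrophage RNA in each result was not tested, so the main values are repeated below in the barcodes with fewer than 20 UMIs summed over 9 macrophage genes (C1qa, C1qb, C1qc, Lyz2, Apoe, Ctsb, Spp1, Mmp12 and Hmox1), a limit chosen after seeing the data. These low-macrophage barcodes numbered 34 in UEIS KI and 14 in UEIS LSL, at like depth (medians of 2392 and 2077.5 UMIs). The limit is a sum of UMIs, which deep barcodes pass more easily, and the deepest barcodes left held 6561 and 5428 UMIs. The repeat thus selects for low depth as well as for little macrophage RNA. The 2 libraries shared 34 barcode sequences, and 0 of these was a gamma-delta barcode in either.

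Genes that the rule did not use bore out the label in part. A gamma constant gene (Trgc1, Trgc2 or Trgc4) was detected in 44 gamma-delta barcodes of UEIS KI (93.6%) and 32 of UEIS LSL (88.9%). Cd4 and Cd8a, the co-receptors of alpha-beta T cells, were at 0 in the 47 and the 36. Trac, the alpha constant gene, was found in 3 barcodes of UEIS KI and 7 of UEIS LSL. Trbc1 or Trbc2, the beta constant genes, were detected in 42 barcodes of UEIS KI (89.4%) and 27 of UEIS LSL (75.0%), so that the beta chain RNA does not set these barcodes apart. Tumour epithelial and mast cell markers were at 0 in both, and the NK markers summed to 19 UMIs in 3 barcodes of UEIS KI and 11 UMIs in 4 of UEIS LSL. Gata3, shared by several lymphocyte types, was present in 9 and 11 barcodes, while the group 2 innate lymphoid cell genes Il5 and Il13 were at 0 and Il1rl1 had 2 UMIs in UEIS KI and 1 in UEIS LSL.

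The rule leaves barcodes on both sides of its edge, and these were not few beside 47 members in UEIS KI and 36 in UEIS LSL. Exactly 1 Trdc UMI was the ground for 8 members in UEIS KI and 5 in UEIS LSL. Just outside stood 14 barcodes in UEIS KI and 21 in UEIS LSL with CD3 and gamma constant RNA but no Trdc, and 7 in UEIS KI and 8 in UEIS LSL with Trdc but no CD3. Trdc was rare elsewhere, with a UMI in 2 of 6155 macrophages in UEIS KI and 4 of 5693 in UEIS LSL. Another 4 NK-gated barcodes in UEIS KI and 5 in UEIS LSL held it too.

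Gamma-delta barcodes were 0.498% (0.366% to 0.661%) of quality-passing barcodes in UEIS KI and 0.384% (0.269% to 0.532%) in UEIS LSL. The log2 ratio of UEIS KI over UEIS LSL was 0.37 (-0.28 to 1.04), an interval that includes no difference even on counting error alone. Counting only low-macrophage members (34 in UEIS KI and 14 in UEIS LSL) over the same quality-passing barcodes, the log2 ratio was 1.27. Counting only members without a UMI of Trac, Trbc1 or Trbc2 (4 in UEIS KI and 7 in UEIS LSL), it was -0.82. CD3-positive barcodes as a whole were fewer in UEIS KI, 308 (3.26%) against 479 (5.11%) in UEIS LSL.

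A wide difference between the gamma-delta barcodes of UEIS KI and UEIS LSL lay in which Scart gene they carried. Scart2 was detected in 32 of 47 barcodes in UEIS KI (68.1%, 52.9% to 80.9%) and in 4 of 36 in UEIS LSL (11.1%, 3.11% to 26.1%). Scart1 ran the other way, with 10 of 47 barcodes in UEIS KI (21.3%, 10.7% to 35.7%) and 19 of 36 in UEIS LSL (52.8%, 35.5% to 69.6%). Scart2 helped to divide barcodes with from those without Il17a or Scart2, but neither gene entered the choice of members, so these shares are measurements of the chosen barcodes.

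Per barcode, Scart2 had 0, 2 and 12 UMIs (lowest, median and highest) in UEIS KI and 0, 0 and 5 in UEIS LSL. Summed, this was 104 UMIs (358 CPM) in UEIS KI against 11 UMIs (36.3 CPM) in UEIS LSL, a log2 ratio of 3.30 (2.40 to 4.35). Scart1 had 0, 0 and 6 UMIs in UEIS KI and 0, 1 and 8 in UEIS LSL, which summed to 25 UMIs (86.0 CPM) and 55 UMIs (181 CPM) and gave a log2 ratio of -1.08 (-1.82 to -0.37). Most UEIS KI barcodes thus held Scart2 RNA, and most UEIS LSL barcodes lacked it although they held more UMIs each. Thinned to 1000 UMIs each (47 barcodes in UEIS KI and 35 in UEIS LSL), Scart2 was left in 20 (42.6%) and 2 (5.71%), and Scart1 in 5 (10.6%) and 7 (20%). In low-macrophage barcodes, Scart2 was found in 24 of 34 in UEIS KI (70.6%) and 2 of 14 in UEIS LSL (14.3%), and Scart1 in 7 (20.6%) and 7 (50.0%). Outside the T cells Scart2 was at or near 0: among macrophages, 0 of 6153 in UEIS KI and 0 of 5689 in UEIS LSL held a UMI, which allows shares of macrophages with a detected UMI, at this depth, of up to 0.0488% and 0.0527%.

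Il17a, the cytokine that names the lineage, was also detected more often in UEIS KI. It was found in 28 of 47 barcodes in UEIS KI (59.6%, 44.3% to 73.6%) and 14 of 36 in UEIS LSL (38.9%, 23.1% to 56.5%). The exact intervals of these shares overlapped. Their log2 ratio was 0.62 (-0.36 to 1.65), with an interval that is too wide for shares this large. Among barcodes that held it, the median was 7 UMIs (up to 46) in UEIS KI and 4 (up to 26) in UEIS LSL. In sum there were 395 UMIs (1358 CPM) in UEIS KI and 107 UMIs (353 CPM) in UEIS LSL, a log2 ratio of 1.95 (1.63 to 2.27). The summed level therefore differed more than the share of barcodes. After thinning, Il17a was left in 22 barcodes of UEIS KI (46.8%) and 7 of UEIS LSL (20%), and in low-macrophage barcodes it had 240 UMIs in 19 of 34 in UEIS KI and 14 UMIs in 6 of 14 in UEIS LSL (log2 2.71, 1.93 to 3.6). Among macrophages, a UMI of Il17a was seen in 7 of 6153 in UEIS KI (0.114%) and 1 of 5689 in UEIS LSL (0.0176%), at median depths of 10322 and 9571 UMIs.

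**Figure D1:**
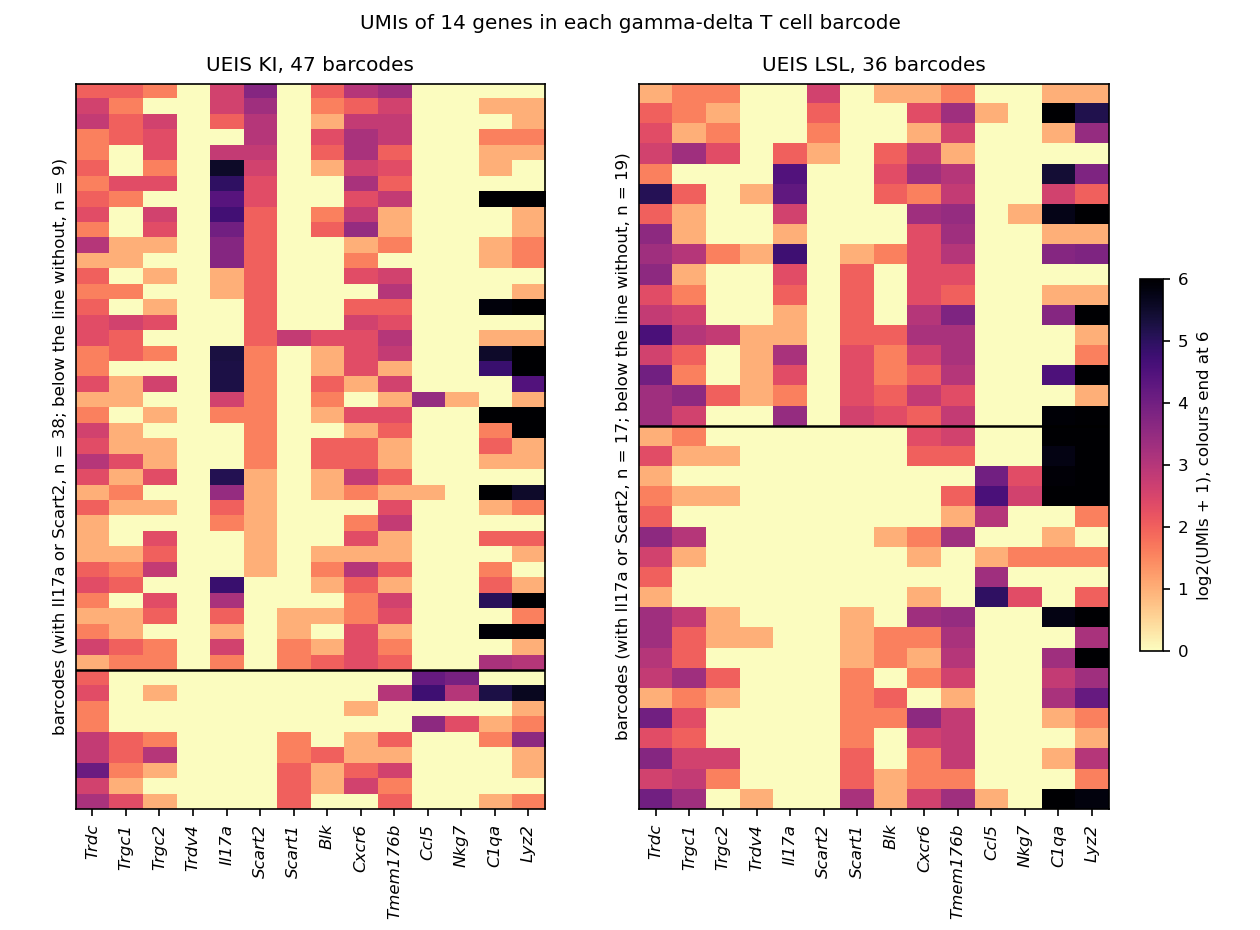
UMIs of 14 genes (columns) in each gamma-delta barcode (rows), coloured by log2(UMIs + 1), with UEIS KI left and UEIS LSL right; barcodes above the black line held Il17a or Scart2, those below neither. Scart2 is coloured in 32 of 47 UEIS KI barcodes and 4 of 36 UEIS LSL barcodes, and Scart1 in 10 and 19.

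Scart1 and Scart2 RNA seldom met in 1 barcode. Both were detected in 1 barcode of UEIS KI and 0 of UEIS LSL. The members can therefore be laid out in 3 kinds, chosen after seeing the data. Scart2 barcodes numbered 32 in UEIS KI and 4 in UEIS LSL. Those with Scart1 and no Scart2 numbered 9 in UEIS KI and 19 in UEIS LSL, and those with neither Scart gene 6 in UEIS KI and 13 in UEIS LSL. The 2 genes lie side by side (GRCm38, GENCODE vM21: Scart1 on chr7 from 140218267 to 140231145, Scart2 from 140247284 to 140300736) and their transcripts are 71.6% identical over the aligned bases, with a longest shared run of 23 bases.

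Il17a was not limited to either kind. In Scart2 barcodes it was found in 22 of 32 in UEIS KI and 1 of 4 in UEIS LSL. Among those with Scart1 alone it was in 4 of 9 in UEIS KI and 9 of 19 in UEIS LSL, and among those with neither in 2 of 6 and 4 of 13. By level, Scart2 barcodes of UEIS KI carried 349 of the 395 Il17a UMIs of that library (1624 CPM within the kind). Its barcodes with Scart1 alone were at 245 CPM and those with neither gene at 1124 CPM. In UEIS LSL the barcodes with Scart1 alone carried 59 of 107 (356 CPM) and those with neither gene 45 (400 CPM). Most Il17a UMIs of each library thus lay in the kind that was most frequent there. In UEIS LSL the intervals of barcodes with Scart1 alone (271 to 459 CPM) and with neither gene (291 to 535 CPM) overlapped, so their levels were not set apart.

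Trdc was higher in barcodes with Scart1 alone than in Scart2 barcodes of the same library. Trdc, used by the rule and given as a description, was at 1116 CPM in UEIS KI and 1050 CPM in UEIS LSL in barcodes with Scart1 alone, and at 451 CPM and 516 CPM in Scart2 barcodes. Trdv4, a delta variable segment that in mice pairs with Vγ6, was detected in 0 of 47 barcodes in UEIS KI and 8 of 36 in UEIS LSL, 1 UMI each; variable segments lie far from the 3' end that these libraries read. Of those 8, 7 had Scart1 and 1 had neither Scart gene. The gamma constant genes did not follow the Scart kinds alike in both libraries. Trgc1 was at 446 CPM with Scart1 alone and 219 CPM in Scart2 barcodes of UEIS KI, and at 561 CPM and 556 CPM in UEIS LSL, where 4 barcodes held Scart2. Trgc2 was at 402 CPM with Scart1 alone and 302 CPM with Scart2 in UEIS KI, and at 145 CPM and 357 CPM in UEIS LSL. Between the libraries, Trgc1 had 70 UMIs (241 CPM) in UEIS KI and 124 UMIs (409 CPM) in UEIS LSL, a log2 ratio of -0.76 (-1.21 to -0.33), and was found in 9 of 9 and 19 of 19 barcodes with Scart1 alone. Trgc2 had 88 UMIs (303 CPM) in 31 barcodes of UEIS KI and 35 UMIs (115 CPM) in 15 barcodes of UEIS LSL, a log2 ratio of 1.39 (0.81 to 2.0). The transcripts of Trgc1 and Trgc2 are 96.1% identical and share a run of 104 bases within their last 300, the part that a 3' library reads, so the division of reads between these genes is uncertain. Trbc1 and Trbc2 are 95.3% identical, but no shared run is longer than 20 bases within their last 300. In low-macrophage barcodes the log2 ratio was -1.36 for Trgc1 and 0.65 (-0.13 to 1.51) for Trgc2.

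Krt83 and Tnfsf11 had fewer UMIs in UEIS KI. Krt83, a hair keratin gene, had 7 UMIs in UEIS KI and 30 in UEIS LSL (24.1 and 98.9 CPM), a log2 ratio of -2.04 (-3.47 to -0.82), and -2.85 (-4.96 to -1.09) in low-macrophage barcodes. It was found in 5 of 9 barcodes of UEIS KI and 14 of 19 of UEIS LSL with Scart1 alone, and in 2 of 32 and 2 of 4 Scart2 barcodes. By level, it was at 112 CPM with Scart1 alone and 9.31 CPM with Scart2 in UEIS KI, whereas in UEIS LSL these were 151 CPM and, on 4 UMIs, 159 CPM. Tnfsf11, which encodes the bone-resorbing cytokine RANKL, had 3 UMIs in UEIS KI, all with Scart1 alone, and 19 in UEIS LSL, 17 of them with Scart1 alone. Il22, another type 17 cytokine, had 0 UMIs in UEIS KI and 22 in UEIS LSL, all in 1 barcode. Il17f had 3 UMIs in UEIS KI and 0 in UEIS LSL.

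**Figure D2:**
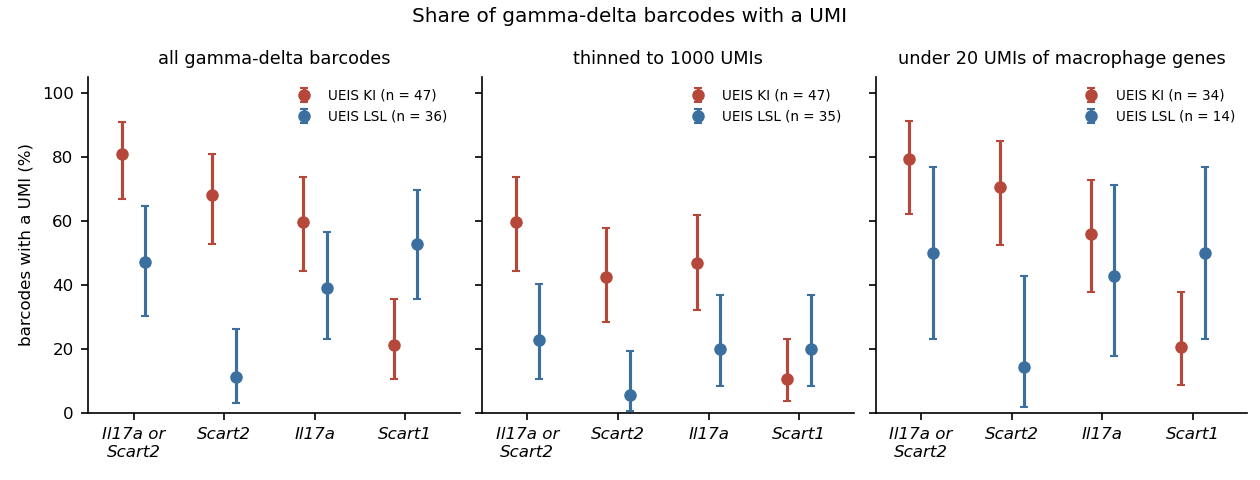
Share of gamma-delta barcodes with a UMI of each gene (vertical axis, percent), UEIS KI beside UEIS LSL, in all barcodes, in barcodes thinned to 1000 UMIs and in low-macrophage barcodes; bars are exact 95% binomial intervals. Scart2 stood at 68.1% in UEIS KI and 11.1% in UEIS LSL, and Scart1 at 21.3% and 52.8%.

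The rest of the IL-17 programme was much alike in both libraries. Of its transcription factors and kinases, 7 of 15 were measured (at least 30 UMIs over both libraries) and 0 was past 2-fold in either direction, with a median log2 ratio of -0.02. Over all 3130 measured genes the median was 0.06, 154 genes (4.92%) were at least 2-fold higher in UEIS KI and 107 (3.42%) at least 2-fold lower. Maf, a factor needed for the lineage, was at 358 CPM in UEIS KI and 363 CPM in UEIS LSL (log2 -0.02, -0.42 to 0.38). Blk, a Src family kinase that these cells share with B cells, was at 182 and 129 CPM (log2 0.50, -0.12 to 1.14). Sox13, another factor of the lineage, was sparse, with 10 UMIs in UEIS KI and 5 in UEIS LSL.

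Surface receptors of the programme also stayed within 2-fold, apart from the Scart genes. Of 14 listed, 10 were measured, with 1 higher (Scart2) and 1 lower (Scart1), and a median log2 ratio of 0.20. Cxcr6, a chemokine receptor of tissue T cells, was found in 40 barcodes of UEIS KI and 31 of UEIS LSL at 536 and 428 CPM (log2 0.32, -0.02 to 0.67). Il7r, the receptor for the survival cytokine IL-7, was at 279 and 303 CPM. Icos, a costimulatory receptor, was at 340 and 198 CPM (log2 0.78, 0.31 to 1.27). Il17re, the receptor chain for IL-17C, had 23 UMIs in UEIS KI and 17 in UEIS LSL, Il23r 7 and 6, and Ccr6 10 and 4, too few to set levels apart.

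Among 14 other genes of the programme, 12 were measured, 0 was higher and 1 (Krt83) lower, with a median of -0.24. S100a4, a calcium-binding protein of motile cells, was at 1547 CPM in UEIS KI and 794 CPM in UEIS LSL (log2 0.96, 0.73 to 1.19), and Aqp3, a water and glycerol channel, at 110 and 62.6 CPM (log2 0.81, -0.05 to 1.71). Tmem176b, an ion channel of type 17 lymphocytes and of myeloid cells, was at 516 and 626 CPM. T cell receptor complex and signalling genes stayed within 2-fold: 11 of 15 were measured, 0 past 2-fold, with a median of 0.53. The CD3 genes of this list chose the members, so these values are a description. Of 15 trafficking genes, 10 were measured, 1 at least 2-fold lower and 2 at least 2-fold higher. The higher were S1pr1, the receptor that guides cells out of tissue, with 27 UMIs in 18 barcodes of UEIS KI and 5 UMIs in 5 of UEIS LSL (log2 2.49, 1.10 to 4.23), and the integrin Itgb1, with 106 and 53 UMIs (log2 1.06, 0.57 to 1.57).

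Set against the other T cells of the same tumours, some of the IL-17 programme genes stood out in both libraries. Other T cells were gated as CD8 (29 barcodes in UEIS KI, 53 in UEIS LSL), regulatory (51 and 104) and other alpha-beta T cells (125 and 192), and pooled. Of 6959 measured genes, 57 (0.819%) were at least 2-fold higher in gamma-delta barcodes in each library, and 93 (1.34%) at least 2-fold lower in each. Counted in UEIS KI by itself, 301 (4.33%) were higher and 410 (5.89%) lower, and in UEIS LSL by itself 159 (2.28%) higher and 533 (7.66%) lower. Trdc and CD3 entered the gates and Il17a and Scart2 the naming of the members, so their ratios are descriptions. The 10 genes most like Trdc, among those with at least 30 UMIs in each library over both sides and ranked by the log2 ratio of gamma-delta over other T cells in both libraries together, were Trdc itself, Blk (6.96), Trgc1 (6.13), Il17a (5.87), Actn2 (4.77), Serpinb1a (3.83), Trgc2 (3.29), St3gal6 (3.21), F2r (3.13) and Cxcr6 (2.86). Scart2, with 11 UMIs in gamma-delta barcodes and 1 in the other T cells of UEIS LSL, did not reach that minimum and was not ranked.

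Blk was at 182 CPM in gamma-delta barcodes of UEIS KI and 129 CPM in those of UEIS LSL, against 2.88 and 0.636 CPM in the other T cells. B cells, which are known to make it, had 119 CPM in UEIS KI and 28.4 CPM in UEIS LSL. Actn2, an actin cross-linker best known from muscle, was at 182 and 148 CPM, against 6.33 and 5.94 CPM. Serpinb1a, an inhibitor of neutrophil proteases, was at 124 and 135 CPM, against 15.0 and 7.0 CPM. Each of these levels in gamma-delta barcodes was far above the other T cells of either library.

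Cxcr6 was at 536 CPM in UEIS KI and 428 CPM in UEIS LSL in gamma-delta barcodes, against 101 and 206 CPM in CD8 T cells, 17.7 and 12.7 CPM in regulatory T cells and 90.4 and 68.2 CPM in other alpha-beta T cells. By list, 3 of 8 measured IL-17 receptor and surface genes and 4 of 11 other programme genes were at least 2-fold higher in each library, and 0 lower. Of 12 measured transcription factors and kinases 1 was higher, namely Blk. Of 7 measured type 17 effector genes 1 was higher and 1 lower in each library, with medians of -0.84 in UEIS KI and 0.87 in UEIS LSL. T cell receptor complex genes, of which the CD3 genes entered the gates, divided, with 2 of 15 higher and 4 lower in each library. Cd6, an adhesion receptor, was among the lower ones, with 3.44 CPM in gamma-delta barcodes of UEIS KI and 13.2 CPM in those of UEIS LSL, and 43.2 to 139 CPM in the gated alpha-beta T cells of either library. Inhibitory and costimulatory receptors were 0 higher and 5 lower of 12 measured. Ctla4, the inhibitory receptor of regulatory T cells, was at 31.0 and 6.59 CPM in gamma-delta barcodes and at 353 and 262 CPM in regulatory T cells. Il17a was also seen in 4 of 125 barcodes of the other alpha-beta T gate in UEIS KI (3.2%) and 9 of 192 in UEIS LSL (4.69%). The same gate held Scart2 in 3 barcodes of UEIS KI and 1 of UEIS LSL, and Scart1 in 1 and 2. Whether some of its barcodes are gamma-delta T cells without detected Trdc was not tested.

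**Figure D3:**
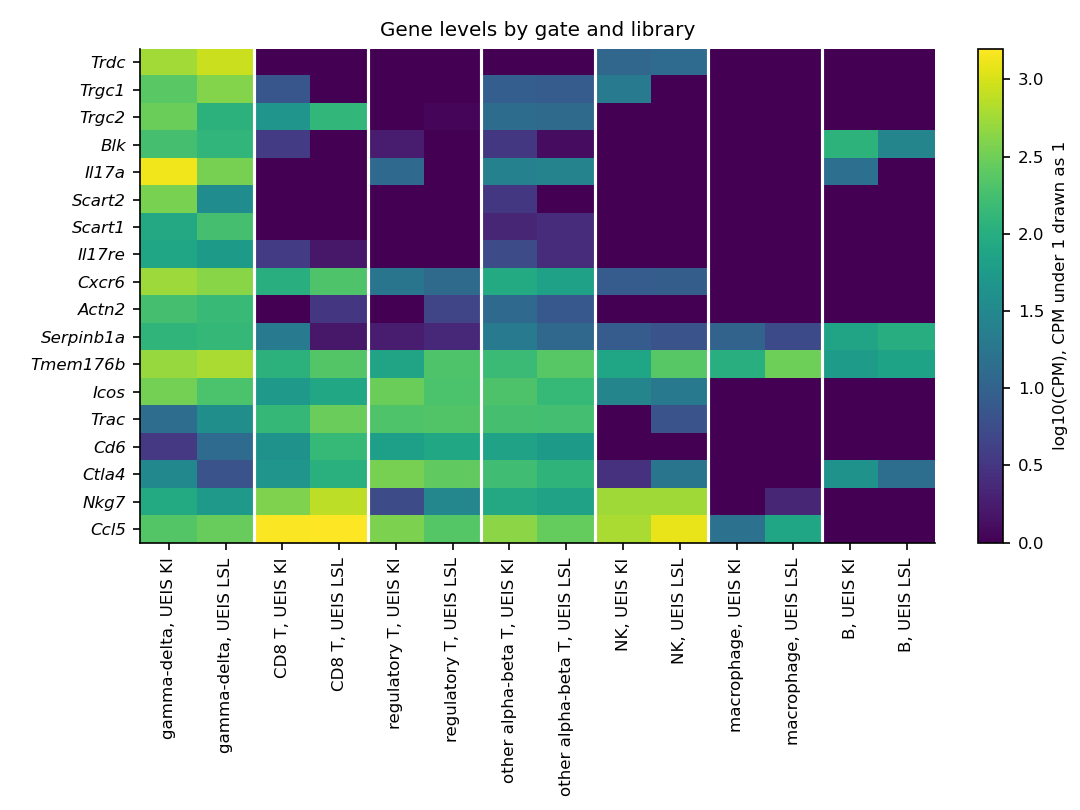
Colour map of the level, log10(CPM), of marker and IL-17 programme genes (rows) in gamma-delta barcodes and in each of the other gates of either library (columns); CPM under 1 is drawn as 1. Blk stood at 182 CPM in UEIS KI and 129 CPM in UEIS LSL gamma-delta barcodes and is also coloured in B cells.

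Barcodes with Il17a or Scart2 were 38 of 47 in UEIS KI (80.9%, 66.7% to 90.9%) and 17 of 36 in UEIS LSL (47.2%, 30.4% to 64.5%). The log2 ratio of these shares was 0.78 (-0.08 to 1.69). That interval treats the barcodes as counts without an upper limit and is too wide for shares this large. The exact intervals of the shares themselves did not overlap. Thinned to 1000 UMIs, 28 (59.6%) and 8 (22.9%) still held 1 of the genes, and in low-macrophage barcodes 27 of 34 (79.4%) and 7 of 14 (50.0%) did. Barcodes without either gene numbered 9 in UEIS KI and 19 in UEIS LSL, and 5 and 10 of them held Scart1. Depth and macrophage RNA were uneven here as well. Barcodes with Il17a or Scart2 had medians of 2863.5 UMIs in UEIS KI and 7847 in UEIS LSL, and those without had 2236 and 6709. Macrophage RNA by C1q genes was found in 9 (23.7%) and 7 (41.2%) of the barcodes with, and in 1 (11.1%) and 8 (42.1%) of the barcodes without. Their part in the differences below was not tested.

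Genes of the cytotoxic programme lay in the barcodes without Il17a or Scart2. Of 3128 genes measured over both libraries together, 195 (6.23%) were at least 2-fold higher with Il17a or Scart2 and 75 (2.4%) at least 2-fold lower, or 137 and 107 when scaled to a median log2 ratio of 0; 40 (1.28%) were higher and 46 (1.47%) lower in each library apart. In UEIS KI by itself 290 of 1630 (17.8%) were higher and 80 (4.91%) lower, and in UEIS LSL by itself 39 of 1573 (2.48%) higher and 44 (2.8%) lower. Of 24 cytotoxic and interferon-gamma genes 7 were measured, 0 higher and 5 lower, with a median log2 ratio of -1.96 against 0.10 over all genes. That median is the value of Ccl3, which, like Ccl4 among the 5 lower genes, macrophages also make. Within UEIS KI, 4 of 5 measured were lower (median -2.06), and within UEIS LSL 2 of 3 (median -1.13). Ccl5, a chemokine of cytotoxic cells, had 11 UMIs in the barcodes with and 54 in those without in UEIS KI, and 1 and 86 in UEIS LSL, together 29.5 CPM with and 746 CPM without (log2 -4.66, -5.65 to -3.81). Nkg7, a granule protein, was at 4.92 and 213 CPM (log2 -5.44, -8.53 to -3.49). Ctsw, a protease of cytotoxic lymphocytes, was at 24.6 and 149 CPM (log2 -2.60, -3.81 to -1.51), and Gimap4, a GTPase of lymphocytes, at 9.84 and 170 CPM (log2 -4.11, -6.07 to -2.62).

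The Ccl5 RNA came from few barcodes. At least 5 UMIs were held by 4 barcodes in UEIS KI (10 to 26 UMIs each) and 5 in UEIS LSL (7 to 30 each), together 64 of 65 and 84 of 87 UMIs. Of these barcodes, 4 of 4 in UEIS KI and 3 of 5 in UEIS LSL held Nkg7. Scart1 was at 0 in all 9, and 1 in UEIS KI and 0 in UEIS LSL held Il17a. Trgc1 was detected in 1 of the 4 in UEIS KI and 1 of the 5 in UEIS LSL, against 32 of 47 and 31 of 36 of all members. Barcodes with a cytotoxic profile thus met the rule in both libraries, but whether they are gamma-delta T cells was not tested further. Ifng itself had 2 UMIs in 1 barcode of UEIS KI and 10 UMIs in 4 barcodes of UEIS LSL.

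Higher with Il17a or Scart2 were Icos, at 347 CPM with and 95.9 CPM without (log2 1.86, 1.14 to 2.65), and S100a4, at 1422 and 602 CPM (log2 1.24, 0.95 to 1.54). Within libraries Icos had log2 ratios of 0.95 (-0.23 to 2.43) in UEIS KI and 2.07 (1.14 to 3.12) in UEIS LSL, and S100a4 of 0.96 and 0.92, below the ratio of the libraries together. Acsbg1, an acyl-CoA synthetase known from type 17 T cells, had 46 UMIs with and 3 without (log2 2.82, 1.19 to 5.15), but 5 and 3 within UEIS LSL (log2 0.81, -1.55 to 3.50). The eye lens crystallin gene Cryba4 had 39 UMIs with and 1 without (log2 4.17, 1.61 to 9.51), and Rrad, a small GTPase, 89 and 9 UMIs (log2 2.19, 1.2 to 3.37). Within UEIS KI, Cryba4 had 28 and 0 UMIs (log2 0.22, lower bound -0.18) and Rrad a log2 ratio of 0.95 (-0.48 to 2.87). Within UEIS LSL these ratios were 3.53 (0.75 to 8.96) and 2.51 (1.11 to 4.24). The other genes named by the same rule were Snhg15, Wac, Nrip1, Ccdc124, Capn2, Zc3h12a and Papola, with log2 ratios between 1.58 and 3.13. The lowest, Nrip1, was at 0.14 (-0.99 to 1.51) within UEIS KI and 2.42 within UEIS LSL. Among these other genes, Ccdc124 alone had an interval that excluded equal levels within UEIS KI. Of the IL-17 lists other than Il17a and Scart2, 1 of 7 measured transcription factors and kinases, 1 of 9 receptor and surface genes and 2 of 12 other genes were at least 2-fold higher with, and 0 lower.

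Type I interferon-induced genes were lower in the barcodes with Il17a or Scart2, 8 of 14 measured, with 0 higher and a median of -1.03 over both libraries together. The libraries were mixed unevenly in this, with 38 of the barcodes with and 9 of those without coming from UEIS KI. Within UEIS KI 1 of 6 measured was lower (median -0.74), and within UEIS LSL 3 of 12 (median -0.64). Isg15, a ubiquitin-like protein, was at 34.4 CPM with and 245 CPM without (log2 -2.83, -3.81 to -1.94); most of its UMIs without were from UEIS LSL (45, against 1 in UEIS KI). The same rule named genes that macrophages also make, Mmp13, Ccl3, Mmp12, Cd36, Apoe and Cxcl10, with log2 ratios between -3.86 and -1.27, beside the heat shock gene Hspa1b (-1.60). The 12 macrophage markers together were at 16060 CPM with and 12962 CPM without in UEIS KI, and at 16060 CPM with and 26921 CPM without in UEIS LSL. Their part in these differences was not tested.

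Between the libraries, the barcodes with Il17a or Scart2 were compared on their own. Of 2261 measured genes 147 (6.5%) were at least 2-fold higher in UEIS KI and 74 (3.27%) lower. Scart2 was at 402 CPM in UEIS KI and 74.4 CPM in UEIS LSL, and Il17a at 1527 and 724 CPM, as descriptions since both genes chose these barcodes. Scart1, which did not, had 12 UMIs in 5 of 38 barcodes of UEIS KI and 30 UMIs in 9 of 17 of UEIS LSL (log2 -2.13, -3.23 to -1.12). Krt83 had 3 and 17 UMIs (log2 -3.31, -5.72 to -1.52). Levels of the programme's shared genes lay close together: Cxcr6 was at 561 CPM in UEIS KI and 541 CPM in UEIS LSL, Blk at 186 and 183 CPM, and Maf at 352 and 345 CPM. Of the type I interferon-induced genes 9 were measured, with 0 past 2-fold and a median of -0.28.

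**Figure D4:**
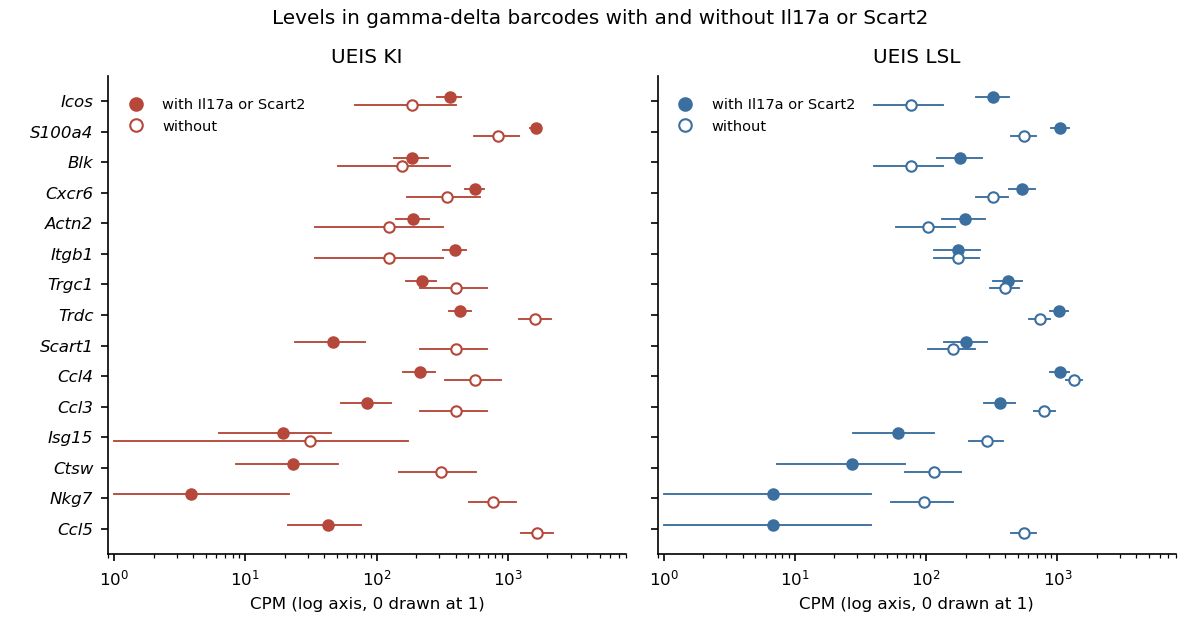
Level (CPM, log axis) of genes in gamma-delta barcodes with Il17a or Scart2 and without, UEIS KI left and UEIS LSL right, with exact 95% Poisson intervals; 0 is drawn at 1. Ccl5 stood at 29.5 CPM with and 746 CPM without over both libraries, and Icos at 347 and 95.9 CPM.

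Over all genes, those at least 2-fold apart between UEIS KI and UEIS LSL were led by genes that few gamma-delta barcodes carried. By the rule for named genes, Lyz1, a lysozyme of myeloid cells, had 151 UMIs in 13 barcodes of UEIS KI and 3 UMIs in 3 of UEIS LSL (519 and 9.89 CPM; log2 5.71, 4.14 to 8.01). Chil3, a chitinase-like protein of macrophages, had 56 UMIs in UEIS KI and 1 in UEIS LSL (log2 5.87, 3.33 to 11.2). Both were also higher in UEIS KI in all other quality-passing barcodes, Lyz1 at 410 CPM against 26.0 CPM and Chil3 at 179 CPM against 66.7 CPM. In low-macrophage barcodes Lyz1 had 6 UMIs in UEIS KI and 0 in UEIS LSL, and Chil3 1 and 0, so the difference of neither could be measured there. Beside Scart2 and Il17a, the 1 gene named as higher that is known from type 17 cells was Acsbg1, with 41 UMIs in 25 barcodes of UEIS KI and 8 UMIs in 8 of UEIS LSL (141 and 26.4 CPM; log2 2.42, 1.31 to 3.72). It had a log2 ratio of 1.98 (0.30 to 4.33) in low-macrophage barcodes.

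Of 20 cell cycle genes 10 were measured, 7 higher in UEIS KI and 0 lower, with a median log2 ratio of 2.76. They included Ube2c, a mitotic ubiquitin-conjugating enzyme, with 60 UMIs in 8 barcodes of UEIS KI and 2 UMIs in 1 of UEIS LSL (log2 4.97, 3.05 to 8.05). Mki67, the proliferation marker, had 28 UMIs in 9 barcodes of UEIS KI and 2 UMIs in 2 of UEIS LSL (log2 3.87, 1.88 to 6.98). Birc5 (42 and 4 UMIs), Ccnb2 (30 and 2) and Cdca8 (32 and 2), which act in mitosis, were named too. So were the histone gene H2ax (30 and 4 UMIs) and the mitotic entry gene Cdca3 (33 and 0 UMIs). With its 0 set to 3, Cdca3 had a log2 ratio of 3.52, with a lower 95% bound of 3.14. The difference rested on few barcodes: without called doublets the median of the list was 0.34, and in low-macrophage barcodes, where 3 members could be measured, it was -0.0077. In these barcodes Mki67 had 5 UMIs in 3 of 34 in UEIS KI and 0 in 14 in UEIS LSL. Ube2c had 21 UMIs in 3 barcodes and H2ax 13 UMIs in 2 barcodes of UEIS KI, with 0 UMIs of either in UEIS LSL. Neither reached the 30 UMIs of a measured gene. Each other gene named in this paragraph had 6 UMIs or fewer in UEIS KI and 1 or fewer in UEIS LSL.

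Several type I interferon-induced genes were lower in UEIS KI, Isg15 by the widest margin among them. Of 40 type I interferon-induced genes 14 were measured, 6 lower and 0 higher, with a median log2 ratio of -0.56. Isg15 had 6 UMIs in 6 barcodes of UEIS KI and 54 UMIs in 17 barcodes of UEIS LSL (20.6 and 178 CPM; log2 -3.11, -4.62 to -1.89). It was also lower in UEIS KI in all other quality-passing barcodes, at 47.3 CPM against 127 CPM in UEIS LSL. Zbp1, a sensor of nucleic acids, had 5 and 31 UMIs (log2 -2.57, -4.29 to -1.2). Bst2 (log2 -1.50), Ifi47 (-1.46) and Ifitm3 (-1.15) were also past 2-fold. In low-macrophage barcodes 2 of the 40 genes could be measured, with a median of -0.35 and 0 past 2-fold, and Isg15 had 2 UMIs in UEIS KI and 1 in UEIS LSL. Among 639 genes measured in these barcodes, 44 (6.89%) were at least 2-fold higher in UEIS KI and 18 (2.82%) lower. Where only barcodes with macrophage RNA by C1q genes were left out (37 left in UEIS KI and 21 in UEIS LSL), 7 of the 40 genes could be measured, 2 lower and 0 higher, beside 68 higher (6.26%) and 101 lower (9.3%) of 1086 genes in all.

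Of 25 interferon-gamma-induced genes 14 were measured, 1 higher and 3 lower, with a median of -0.50. Cd274, which encodes PD-L1, had 6 UMIs in UEIS KI and 39 in UEIS LSL (log2 -2.64, -4.17 to -1.39), and Gbp2, a guanylate-binding protein, 3 and 34 (log2 -3.44, -5.79 to -1.77). In all other quality-passing barcodes Cd274 was at 25.3 CPM in UEIS KI and 39.8 CPM in UEIS LSL, and Gbp2 at 22.4 and 63.7 CPM. The chemokine Cxcl9, also lower, had 3 UMIs in 3 barcodes of UEIS KI and 57 UMIs in 3 barcodes of UEIS LSL. The higher one was Irf8, a factor of myeloid cells, with 54 and 26 UMIs (log2 1.12, 0.42 to 1.85). Of 11 cGAS-STING genes 4 were measured, 1 higher (Nfkb1, an NF-κB subunit, with 62 and 22 UMIs, log2 1.56, 0.83 to 2.33) and 1 lower (the DNA sensor Ifi204, with 9 and 23 UMIs, log2 -1.29, -2.59 to -0.13). Sting1 had 14 UMIs in UEIS KI and 20 in UEIS LSL, and Cgas 5 and 3. The interferon receptor genes were level, 5 of 7 measured with 0 past 2-fold.

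Other lists held few genes past 2-fold. Of 11 type 17 effector genes 4 were measured, with a median of -0.46, with Il17a higher and the growth factor Vegfa lower (15 UMIs in UEIS KI and 45 in UEIS LSL; log2 -1.52, -2.47 to -0.65). Of 24 cytotoxic and interferon-gamma genes 7 were measured, 0 higher and 2 lower (Ccl3 and Ccl4), and Ccl5 was at 224 CPM in UEIS KI and 287 CPM in UEIS LSL (log2 -0.36, -0.85 to 0.12). Of 17 inhibitory and costimulatory receptors 3 were measured and 1 was higher, Tnfrsf9 (4-1BB), with 28 UMIs in 6 barcodes of UEIS KI and 11 UMIs in 3 of UEIS LSL (log2 1.41, 0.36 to 2.56). Of 15 early activation and stress genes, which tissue digestion can also switch on, 0 were higher and 1 lower, Jun (1059 and 2406 CPM; log2 -1.18, -1.38 to -0.99). Of 13 measured glycolysis and hypoxia genes 1 was lower, the glucose transporter Slc2a1 (117 and 283 CPM; log2 -1.28, -1.90 to -0.69). Of 6 measured lipid genes 2 were lower (Plin2 and Cd36), with a median of -0.74, and of 8 measured MHC class I genes 1 was lower, H2-M3 (12 and 26 UMIs; log2 -1.05, -2.18 to -0.02).

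The other genes named as lower in UEIS KI were mostly chemokine and lipid genes of macrophages. Ccl7 had 54 UMIs in UEIS KI and 647 in UEIS LSL, of which 1 barcode held 195. Ccl4, Ccl12 and Ccl3 were further chemokines, with log2 ratios of -2.25, -2.21 and -2.29. Hmox1, heme oxygenase, was at -1.92, and Plin2 and Cd36, which handle lipid droplets and fatty acids, at -1.99 and -3.98. Mmp13, a collagenase (-3.79), and Plk2, a stress-responsive kinase (-2.31), complete the named genes. In low-macrophage barcodes the chemokine genes were too sparse for a direction. Ccl7 had 8 UMIs in UEIS KI and 2 in UEIS LSL, Ccl4 20 and 4, Ccl12 7 and 1 and Ccl3 10 and 0. Each counting interval included equal levels. Hmox1, with 11 and 0 UMIs there, is 1 of the genes that set this limit, so its low counts follow from the limit. Where only barcodes with macrophage RNA by C1q genes were left out, Hmox1 had 22 UMIs in UEIS KI and 369 in UEIS LSL (log2 -4.39, -5.08 to -3.77). In the same barcodes Plin2 was at -3.97, Ccl7 at -1.87 and Ccl3 at -1.41, while the intervals of Ccl4 (-0.42) and Ccl12 (1.68) included equal levels. The intervals of Scart2, Il17a, Acsbg1, Scart1 and Krt83 excluded equal levels in all gamma-delta barcodes and in low-macrophage barcodes. The direction was the same in both, for Krt83 on 4 and 11 UMIs.

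**Figure D5:**
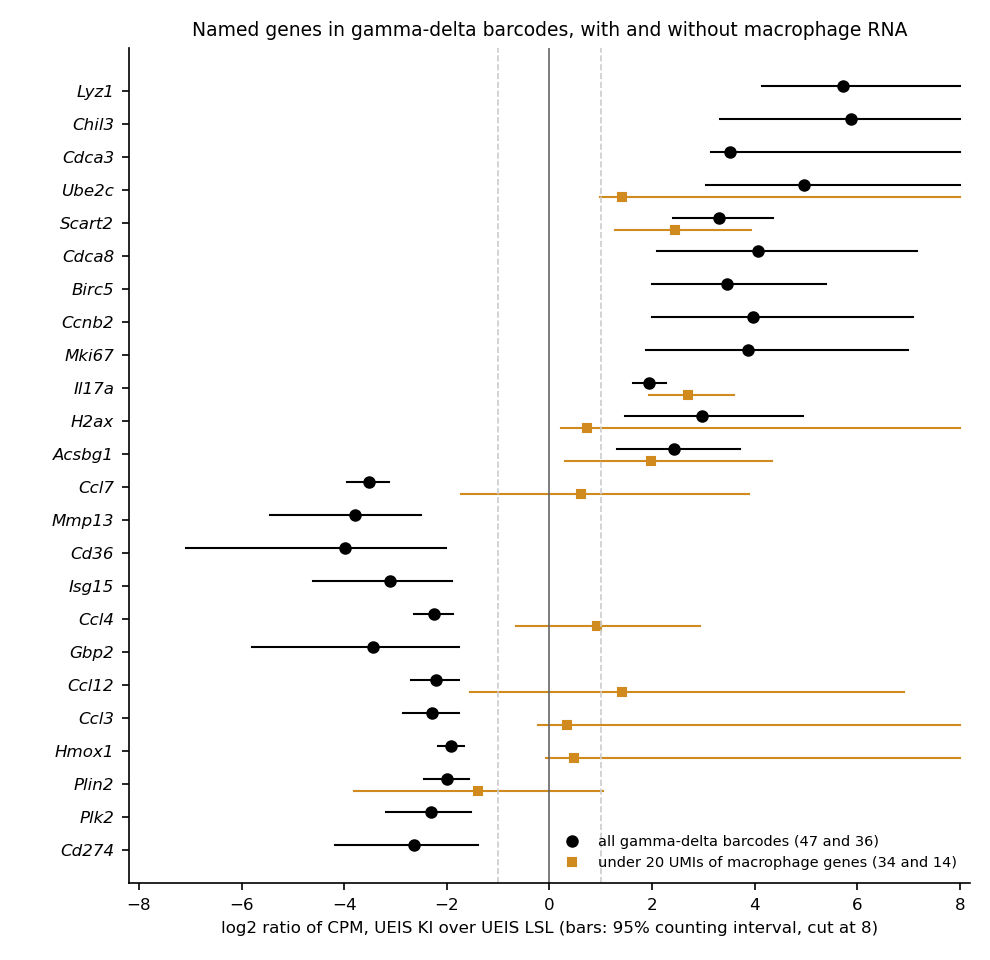
Log2 ratio of UEIS KI over UEIS LSL for the named genes (horizontal axis), in all gamma-delta barcodes and in low-macrophage barcodes, with exact 95% counting intervals cut off at 8. Scart2 (3.30 and 2.45), Il17a (1.95 and 2.71) and Acsbg1 (2.42 and 1.98) had intervals clear of 0 in both, while those of Ccl4 and Ccl12 in low-macrophage barcodes include 0; a side with 0 UMIs is set to 3.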

How the data were processed

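RNA was measured by 10x 3' version 3 single-cell RNA-seq in 1 library a group. The authors deposited whole-number UMI counts per gene and barcode as matrices, with gene names and barcodes (identifiers of type other) beside them. Per the submitters' processing notes, Cell Ranger 2.1.1 and mm10 were used; the file header names Cell Ranger 8.0.1, and the annotation is not given in the sources used here. Of 55357 gene identifiers, 52081 (94.1%) are in GENCODE vM21, from which coordinates were taken. The deposited barcodes numbered 9734 in UEIS KI and 9527 in UEIS LSL, with 99404988 and 92764697 UMIs.

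Members, gene lists and groupings were chosen with earlier results of these data known. UMI counts were summed over the barcodes of a class and divided by the class total (CPM). Levels carry exact Poisson intervals, shares exact Clopper-Pearson intervals and ratios the conditional binomial interval, all at 95%. For ratios of large shares the conditional binomial interval is too wide. PCR and cell sampling are not covered. With 1 library a group no test was run, and DESeq2 and edgeR were not used. A ratio with a count of 0 on 1 side was set to 3 counts over that class, and genes with at least 30 UMIs over both sides counted as measured. The arithmetic was tested on simulated data with known changes.

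Named genes are up to 12 a direction with at least 30 UMIs, UMIs in at least 5 barcodes of the higher side, no single barcode holding most of them, an interval that excludes equal levels, and a level there no lower than in the other barcodes of the library. They are ranked by the interval bound nearest no difference, with predicted, mitochondrial, ribosomal, haemoglobin, receptor segment and sex-linked genes left out. Listed genes may be named as well. Doublets were called by Scrublet score (0.8% per 1000 barcodes). Python 3.11.15, numpy 2.4.6, scipy 1.17.1, pandas 2.3.3, scanpy 1.11.5 and matplotlib 3.10.9 were used. Promoter windows are from RefSeq. Alternatives covered the limits on barcodes and genes, the members, the scaling and thinning to 1000 UMIs. Results for some genes of the lists are not reported here.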

Additional observations from a re-analysis of the deposited data

How the results depend on the processing

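No paired analysis was possible because each group is 1 library, so no replicate could be left out either. Of the alternatives to the main comparisons, 392 gave like values, 75 moved and 3 crossed 0 where the main interval had excluded it. For single named genes, 343 were alike, 49 moved, 9 crossed 0 in that way and 31 could give no value. Counting also the medians and log2 ratios of shares whose interval included 0, 54 of 336 alternatives lay on the other side of 0. The cause of these moves was not tested unless the setting itself removes barcodes or genes.

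Share of gamma-delta barcodes. It moved in UEIS KI (0.498%) to 0.0424% counting only members without Trac, Trbc1 or Trbc2, 0.360% counting only low-macrophage members and 0.294% after thinning. In UEIS LSL (0.384%) it moved to 0.0747%, 0.149% and 0.196% in the same order. Counting only members without macrophage RNA by C1q, it was 0.224% in UEIS LSL. Apart from thinning, the members left were set over all quality-passing barcodes. The log2 ratio of 0.37 became -0.82 without the alpha-beta receptor barcodes and 1.27 counting only low-macrophage members. The share with Il17a or Scart2 became 50.0% in UEIS KI and 28.6% in UEIS LSL without the alpha-beta receptor barcodes, and 66.7% in UEIS KI after thinning.

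Counts of genes past 2-fold moved with the setting. For UEIS KI over UEIS LSL, 154 higher and 107 lower became 765 and 408 with a minimum of 10 UMIs, 12 and 31 with 100, 2665 and 1765 with no minimum, 238 and 256 with every barcode weighted alike, 18 and 22 after thinning, 15 and 43 without the alpha-beta receptor barcodes, and 44 and 18 in low-macrophage barcodes; 68 were higher without macrophage RNA by C1q. Scaled to a median log2 ratio of 0, the counts were 129 and 121 (51.6% higher, against 59.0%). For barcodes with over without Il17a or Scart2, 195 higher and 75 lower became 868 and 363, 10 and 18, 1236 and 3419, 318 and 180, and 26 and 13 under the first 5 of these settings, and 137 and 107 (56.1% higher, against 72.2%) scaled to a median of 0, and 55 and 24 in low-macrophage barcodes; 20 were higher and 50 lower without the alpha-beta receptor barcodes, 70 and 63 without macrophage RNA by C1q, 114 without called doublets, 115 split by Il17a alone, and 39 higher and 44 lower in UEIS LSL apart. Against the alpha-beta T cells, 57 higher became 20, and 93 lower became 56, in low-macrophage barcodes, and 142 were lower without macrophage RNA by C1q.

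List medians (log2, UEIS KI over UEIS LSL) moved as follows, with those that crossed 0 first in each setting. Without the alpha-beta receptor barcodes, type 17 effectors 4.29, trafficking -1.09, glycolysis 0.12 and cell cycle -0.30 crossed, and activation -0.89 and lipid handling -3.38 did not. Without macrophage RNA by C1q, type 17 effectors 1.37 and cGAS-STING 1.60 crossed, and cell cycle 0.44, glycolysis -0.82 and lipid handling -2.90 did not. In low-macrophage barcodes, type 17 effectors 1.27, interferon receptors 0.80, glycolysis 0.079 and cell cycle -0.0077 crossed, and activation -0.40 did not. After thinning, type 17 effectors 2.43 and interferon-gamma-induced 0.027 crossed, and IL-17 receptors 0.76 and cell cycle 0.10 did not. With every barcode weighted alike, other IL-17 genes 0.18 crossed, and cell cycle 0.72 did not. Without called doublets, IL-17 transcription factors 0.53 crossed, and cell cycle 0.34 did not. With a minimum of 100 UMIs, type 17 effectors 0.83 crossed, and cytotoxic genes -2.25 and cell cycle 0.86 did not. With no minimum the gamma-delta receptor list crossed to 0.049. Cell cycle was at 1.07 with at least 2 Trdc UMIs and 0.60 with a gamma constant UMI.

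Single genes lay on the other side of 0 in low-macrophage barcodes (Ccl7 0.61, Ccl4 0.93, Ccl12 1.42, Ccl3 0.35 and Hmox1 0.48, each on fewer than 30 UMIs with an interval that includes 0, so that no direction was measured), without macrophage RNA by C1q (Ccl12 1.68), without the alpha-beta receptor barcodes (Ccl12 0.11 and Ccl3 0.63) and where barcodes with Foxp3, Cd8b1 or Ncr1 were kept (Chil3 -0.029). Hmox1 is itself 1 of the genes that set the low-macrophage limit. With few barcodes in each class, a gene of fewer than 30 UMIs could not be measured, and shares of barcodes with a UMI are bounded by their depth.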
